A study of Homo sapiens with 6 samples.

Results

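The 10 genes described here are transcripts that the RAS-RAF-MEK-ERK cascade is known to switch on, and most of their products restrain the cascade that induced them. They were taken by gene symbol and comprise the MAPK phosphatases DUSP1, DUSP4, DUSP5 and DUSP6, the inhibitors SPRY2, SPRY4 and SPRED1, and the transcription factors ETV4, ETV5 and EGR1. All 10 were found among the 17631 genes listed for each library, and all 10 were among the 12582 genes tested. RNA-seq libraries were made from MDA-MB-231, a cell line established from a human triple-negative breast cancer with a mesenchymal character, with 3 libraries per group. One group received 30 µM PDBAG1 for 24 h, and the other received vehicle, which is not described further, over the same 24 h. The labels give the source of all 6 as tissue of breast cancer, but also name the cell line. PDBAG1 is a synthetic peptide that joins a stretch of the enzyme GPD1 to a cell-penetrating sequence. No library analysed here came from cells given the cell-penetrating sequence alone, so the contributions of its 2 parts cannot be told apart. The sources used here do not say whether the 3 libraries of a group came from separate cultures. The p-values therefore set the group difference against the spread between these libraries, which may be technical. For each gene, limma draws that spread towards the spread of genes at a similar level.

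In this cascade, growth factor receptors load RAS with GTP, RAS activates RAF kinases, RAF phosphorylates MEK, and MEK phosphorylates ERK, which then enters the nucleus and activates transcription factors. Immediate early genes such as EGR1 respond first, and genes for phosphatases and receptor-level inhibitors follow, so that ERK output limits itself. MDA-MB-231 cells are known to carry activating mutations in this cascade, and in such cells feedback transcripts are commonly read as a sign of ERK output. The libraries measure RNA only, and neither ERK phosphorylation nor protein levels were measured in them.

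The deposited values are TPM, the abundance of a transcript relative to all transcripts of its library. They are scaled for transcript length and for the library total, so levels can be compared between genes. TPM keeps no sequencing depth, so no counting error could be given, and between 12392 and 12611 genes per library reached a TPM of at least 1. Of the 6 markers listed for this mesenchymal line, VIM, CD44, AXL, KRT18 and CAV1 were at 309 TPM or more in every library, whereas SPARC stayed below 0.94 TPM. Of the receptor and epithelial markers, PGR and CDH1 stayed below 0.85 TPM, ESR1 was at 1.96 to 3.38 TPM, EPCAM at 3.92 to 5.78 TPM and ERBB2 at 23.6 to 25.4 TPM. Summed markers of leukocytes, endothelium, fibroblasts and adipocytes without CD68 (9 genes) ranged from 9.81 to 10.1 TPM with vehicle and from 14.3 to 16.3 TPM with PDBAG1, mostly through PECAM1 (3.94 ± 0.152 and 8.64 ± 0.680 TPM, SD, n = 3 each). CD68, a macrophage marker, was at an average of 257 ± 6.55 TPM in the vehicle libraries and 318 ± 11.8 TPM in the PDBAG1 libraries (SD, n = 3 each). The part of either in the results was not tested, and in such bulk RNA a change in the number of cells of a kind and a change in RNA per cell cannot be told apart.

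The ERK feedback genes as a group were at higher TPM in the PDBAG1 libraries than in the vehicle libraries. The 10 genes were chosen with earlier results of these data known, so the counts below describe them and are no independent test. In all 10 genes each PDBAG1 library exceeded each vehicle library, while this was so for 27.2% of all genes tested. By limma, 9 of the 10 passed a Benjamini-Hochberg adjusted p of 0.05 in the higher direction, against 21.7% of all genes tested, and none passed in the lower direction, against 15.9%. Only EGR1 and DUSP6 also rose at least 1.5-fold, a limit that 2.86% of all genes tested passed in the higher direction. The median log2 fold change was 0.35 over the 10 genes and 0.03 over all genes tested. Under quantile normalization, 46.7% of the genes called among all genes tested were higher, compared with 57.8% for the values as deposited, and 9 of the 10 members still passed. The smallest difference was that of ETV4, which did not pass.

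**Figure D1:**
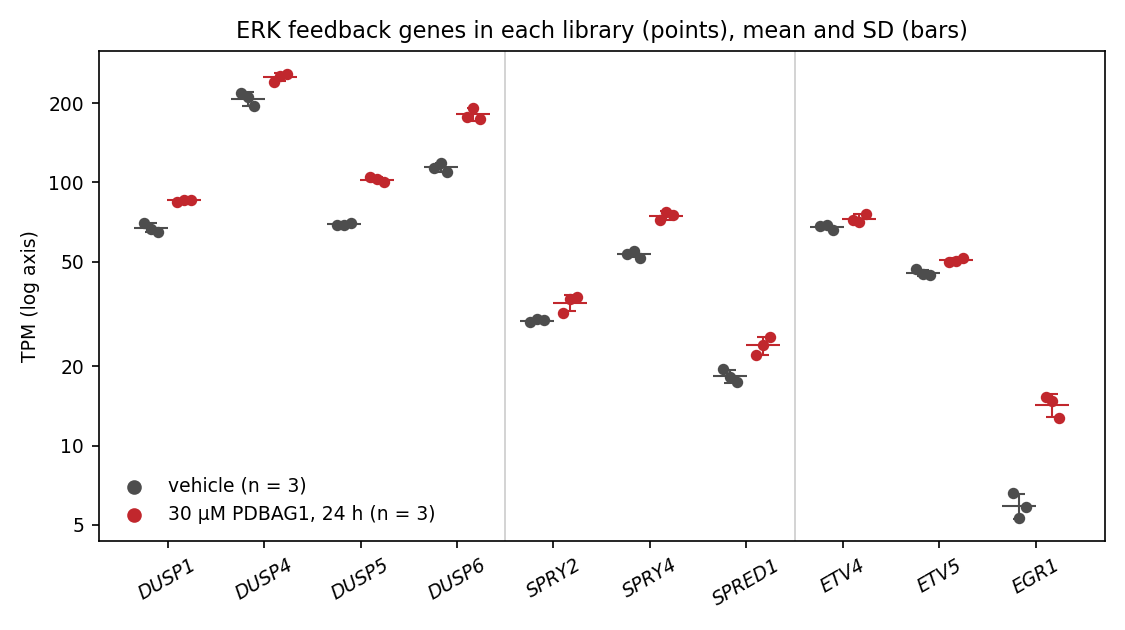
Level of each ERK feedback gene in TPM (vertical log axis) in the 3 vehicle libraries (grey) and the 3 PDBAG1 libraries (red); points are libraries, horizontal marks are means and whiskers are SD. In each of the 10 genes the red points lie above the grey ones, with the widest gap for EGR1 (5.91 against 14.3 TPM on average) and the narrowest for ETV4 (67.7 against 72.9 TPM).

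The 4 phosphatases remove phosphate from both the threonine and the tyrosine of MAP kinases. DUSP6 is a cytoplasmic enzyme selective for ERK. It is encoded on chromosome 12 (89347235 to 89352501, minus strand, GRCh38, GENCODE v44, 3 exons in the canonical transcript). Its levels were 113, 119 and 110 TPM in the vehicle libraries and 178, 192 and 174 TPM in the PDBAG1 libraries. All PDBAG1 libraries were thus above all vehicle libraries, by 67.4 TPM on average. DUSP6 rose by a log2 fold change of 0.67 (standard error of the fit, SE, 0.05, 95% confidence interval 0.56 to 0.77, adjusted p = 2.42e-07 by limma), the largest rise of the 4 phosphatases.

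DUSP5 is the nuclear phosphatase that is selective for ERK (chromosome 10, 110497907 to 110511533, plus strand, 4 exons). It was at 68.8, 68.8 and 70.2 TPM with vehicle and at 105, 103 and 100.2 TPM with PDBAG1. Its vehicle libraries were closer together than those of any other phosphatase member, with an SD of 0.803 TPM. The log2 fold change was 0.56 (SE 0.04, 95% confidence interval 0.47 to 0.65, adjusted p = 4.38e-07 by limma). This estimate lay just under the 1.5-fold limit, and the interval included that limit.

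DUSP1, a nuclear phosphatase that acts on p38 and JNK as well as on ERK, is on chromosome 5 (172768096 to 172771195, minus strand, 4 exons). Its levels were 70.2, 66.5 and 65.0 TPM with vehicle and 84.3, 86.0 and 85.8 TPM with PDBAG1. The lowest treated library was 14.1 TPM above the highest vehicle library, and the log2 fold change was 0.34 (SE 0.05, adjusted p = 7.60e-05 by limma). DUSP4, another nuclear enzyme (chromosome 8, 29333064 to 29350684, minus strand, 4 exons), was the most abundant of the 10 genes. It was at 219, 211 and 194 TPM with vehicle and at 242, 254 and 259 TPM with PDBAG1. In TPM this was the second largest difference of the 10 (43.2 TPM, after DUSP6), but relative to its level DUSP4 rose least among the phosphatases, with a log2 fold change of 0.27 (SE 0.05, adjusted p = 0.000573 by limma).

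The make-up of the phosphatase RNA also differed between the groups. The 10 MAPK phosphatase genes summed to 524, 513 and 489 TPM with vehicle and to 671, 700 and 689 TPM with PDBAG1. DUSP4 made up 40.9% ± 1.02 of that sum in vehicle libraries and 36.6% ± 0.820 in PDBAG1 libraries (SD, n = 3 each), and DUSP6 made up 22.4% ± 0.793 and 26.4% ± 1.12 (SD, n = 3 each). For both genes the 3 PDBAG1 shares lay entirely on 1 side of the 3 vehicle shares. The same was so for DUSP1, DUSP2, DUSP5, DUSP7, DUSP9 and DUSP10, and only the shares of DUSP8 and DUSP16 overlapped. Shares of 1 sum also depend on each other, so a change in 1 share moves the others. Within a library, DUSP6 was at 0.516, 0.565 and 0.564 times the level of DUSP4 with vehicle and at 0.735, 0.758 and 0.673 times that level with PDBAG1. The nuclear enzymes (DUSP1, DUSP2, DUSP4 and DUSP5) together were at 345 ± 14.5 TPM in vehicle libraries and 439.5 ± 7.70 TPM in PDBAG1 libraries (SD, n = 3 each), but as a share they went from 67.8% ± 0.554 to 64.0% ± 0.661 of the sum, and those that act mainly on JNK and p38 (DUSP8, DUSP10 and DUSP16) from 4.12% ± 0.131 to 5.55% ± 0.291 (SD, n = 3 each). These shares were not tested.

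**Figure D2:**
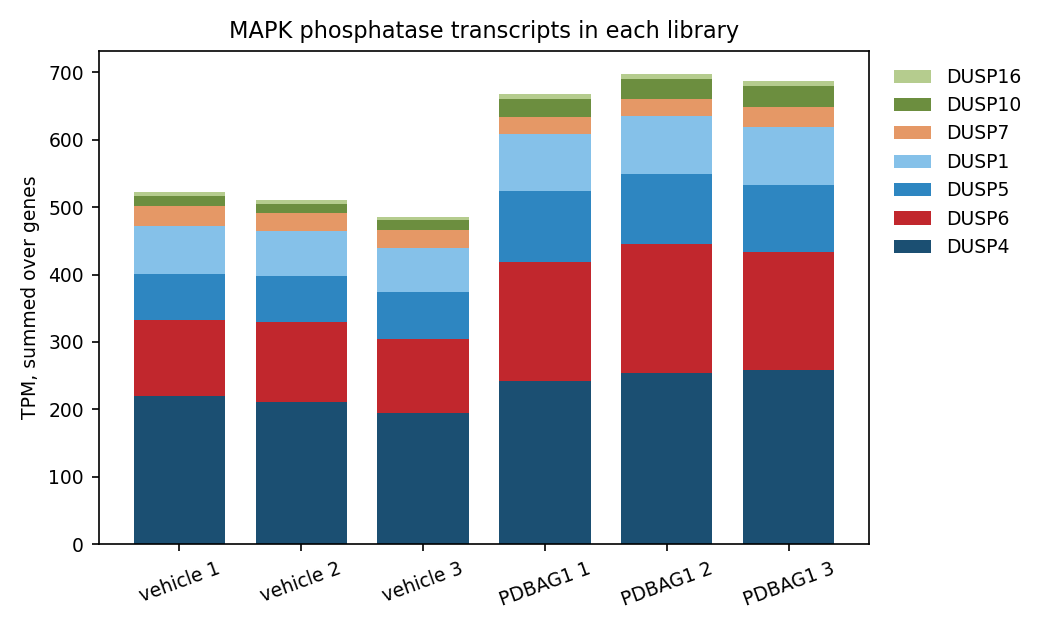
Stacked TPM (vertical axis) of 7 MAPK phosphatase genes in each of the 6 libraries (horizontal axis); DUSP2, DUSP8 and DUSP9, each at most 0.262% of the sum, are left out. The stacks of the PDBAG1 libraries are taller, and DUSP6 (red) takes 26.4% of the sum on average, against 22.4% with vehicle.

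Sprouty and Spred proteins act further up, at the step from receptors to RAS and RAF. SPRY4 (chromosome 5, 142310427 to 142326455, minus strand, 2 exons) was at 53.6, 54.9 and 51.8 TPM with vehicle and at 71.9, 77.3 and 75.3 TPM with PDBAG1. It rose by a log2 fold change of 0.48 (SE 0.05, adjusted p = 6.33e-06 by limma), the largest of the 3 inhibitors. SPRED1, which brings the RAS inactivator NF1 to the membrane (chromosome 15, 38252836 to 38357249, plus strand, 7 exons), was at 19.5, 18.2 and 17.4 TPM with vehicle and at 22.1, 24.1 and 25.8 TPM with PDBAG1. Its log2 fold change was 0.37 (SE 0.07, adjusted p = 0.00128 by limma).

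SPRY2 (chromosome 13, 80335976 to 80341126, minus strand, 2 exons) was at 29.5, 30.2 and 29.9 TPM with vehicle and at 32.0, 36.0 and 36.7 TPM with PDBAG1. Its PDBAG1 replicate 1 lay 1.78 TPM above the highest vehicle library, while the other PDBAG1 libraries were higher. The log2 fold change was 0.22 (SE 0.06, adjusted p = 0.0139 by limma). The call was lost without PDBAG1 replicate 2 (log2 fold change 0.19, adjusted p = 0.0664 by limma) and without PDBAG1 replicate 3 (0.18, adjusted p = 0.05001 by limma). SPRY4 was at 1.79 ± 0.0479 times the level of SPRY2 with vehicle and at 2.15 ± 0.0984 times with PDBAG1 (SD, n = 3 each), with no overlap between the groups.

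The transcription factors held both the largest and the smallest change of the 10. EGR1, a zinc finger factor and a classical immediate early gene (chromosome 5, 138465479 to 138469303, plus strand, 2 exons), had the lowest level of the 10 in both groups. It was at 6.59, 5.32 and 5.83 TPM with vehicle and at 15.4, 14.8 and 12.7 TPM with PDBAG1. The ratio of the mean TPM was 2.42, and the log2 fold change was 1.14 (SE 0.09, 95% confidence interval 0.94 to 1.35, adjusted p = 7.79e-07 by limma). EGR1 ranked 47 from the top of the 12582 genes tested by log2 fold change on the log2(TPM + 1) scale, which understates the change of low genes.

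ETV5 and ETV4 are ETS factors of the PEA3 group and are often taken as markers of sustained ERK output. ETV5 (chromosome 3, 186046314 to 186110318, minus strand, 13 exons) was at 46.9, 44.9 and 44.5 TPM with vehicle and at 49.9, 50.4 and 51.6 TPM with PDBAG1. Its log2 fold change of 0.15 (SE 0.05, adjusted p = 0.0253 by limma) passed, but not without vehicle replicate 2 (0.15, adjusted p = 0.0842 by limma), vehicle replicate 3 (0.14, adjusted p = 0.104 by limma), PDBAG1 replicate 2 (0.16, adjusted p = 0.0713 by limma) or PDBAG1 replicate 3 (0.14, adjusted p = 0.0648 by limma). ETV4 (chromosome 17, 43527844 to 43579620, minus strand, 13 exons) was at 68.2, 68.6 and 66.2 TPM with vehicle and at 71.99, 70.8 and 75.9 TPM with PDBAG1. Although the groups did not overlap, its log2 fold change of 0.11 (SE 0.05, 95% confidence interval 0.004 to 0.21) did not pass (adjusted p = 0.0961 by limma). ETV4 was at 1.49 ± 0.0364 times the level of ETV5 with vehicle and at 1.44 ± 0.0344 times with PDBAG1 (SD, n = 3 each), and these ratios overlapped.

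**Figure D3:**
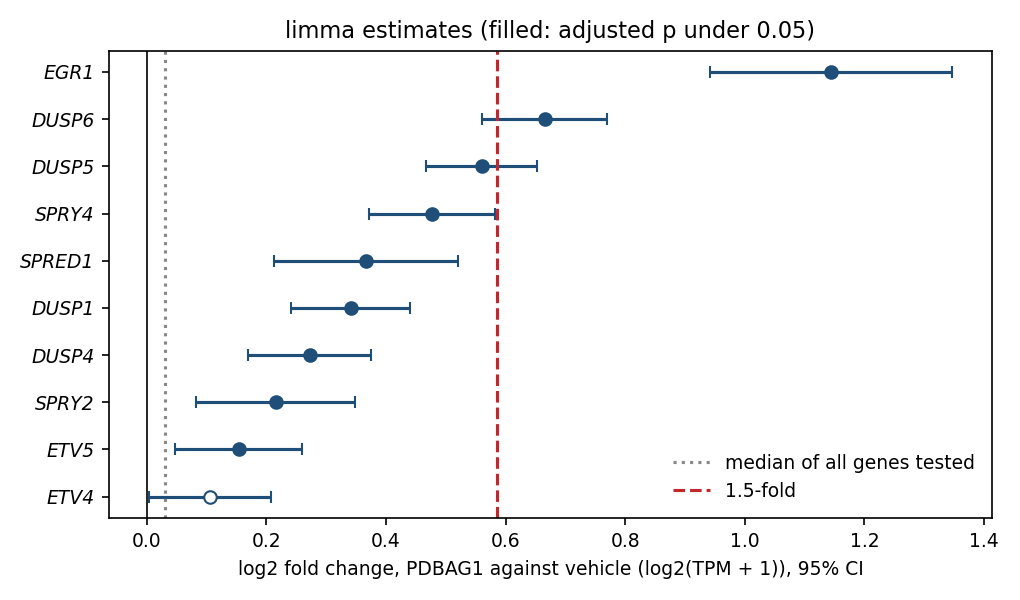
Log2 fold change of PDBAG1 against vehicle on the log2(TPM + 1) scale (horizontal axis) for each ERK feedback gene, with 95% confidence intervals from limma; filled points passed an adjusted p of 0.05, the dotted line is the median of all genes tested and the dashed line marks a 1.5-fold change. The estimates run from 0.11 for ETV4 to 1.14 for EGR1, and DUSP5 at 0.56 sits just below the dashed line.

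In the vehicle libraries the order of the levels was DUSP4, DUSP6, DUSP5, ETV4, DUSP1, SPRY4, ETV5, SPRY2, SPRED1 and EGR1. ETV4 and DUSP1 were the only neighbours in that order whose libraries overlapped. DUSP5 and DUSP1, not neighbours there, overlapped as well (68.8 to 70.2 against 65.0 to 70.2 TPM), so their order was not resolved. With PDBAG1 the order was DUSP4, DUSP6, DUSP5, DUSP1, SPRY4, ETV4, ETV5, SPRY2, SPRED1 and EGR1, so ETV4 stood lower, and SPRY4 and ETV4 were the only overlapping neighbours. The coefficient of variation within a group ranged from 1.11% to 10.8% over the 10 genes, with a median of 3.66%. Whether the libraries kept strand is not stated in the sources used here. DUSP1, DUSP6, SPRY4, ETV4 and ETV5 overlap genes annotated on the opposite strand, and for ETV4 this is the protein-coding gene DHX8, so reads of these pairs may not have been told apart. The start of ETV5 also overlaps the protein-coding gene DGKG on the same strand (186105668 to 186110318), where strand could not separate any shared reads. Whole gene spans were compared here, so whether exons overlap in any of these pairs was not tested.

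The RefSeq table used here held promoter windows for 6 of the 10 genes (GRCh38.p14), and the 250 bases before the start site were searched on both strands. The upstream 200 bases are shown for the gene with the largest rise (EGR1), for the phosphatase DUSP1 and for the phosphatase with the largest rise (DUSP6), 5′ to 3′ along the gene. They lie at chr5:138465279-138465478 (plus strand), chr5:172771196-172771395 (minus strand) and chr12:89352502-89352701 (minus strand). Capitals mark CArG boxes, the sequence bound by serum response factor, and the letters TGACG or their reverse complement, the core of the cAMP response element.
EGR1: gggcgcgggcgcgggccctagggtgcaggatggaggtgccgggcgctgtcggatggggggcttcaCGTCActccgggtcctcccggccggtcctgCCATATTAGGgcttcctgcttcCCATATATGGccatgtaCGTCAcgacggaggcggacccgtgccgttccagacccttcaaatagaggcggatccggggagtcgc
DUSP1: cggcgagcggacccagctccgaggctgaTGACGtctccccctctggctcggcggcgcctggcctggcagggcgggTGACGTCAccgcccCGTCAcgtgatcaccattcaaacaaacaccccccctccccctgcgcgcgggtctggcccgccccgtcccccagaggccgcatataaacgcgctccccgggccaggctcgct
DUSP6: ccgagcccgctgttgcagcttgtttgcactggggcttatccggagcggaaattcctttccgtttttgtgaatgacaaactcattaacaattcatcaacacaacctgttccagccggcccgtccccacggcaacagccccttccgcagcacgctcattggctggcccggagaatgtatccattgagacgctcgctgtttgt

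The EGR1 window held 2 CArG boxes, at 105 to 96 and 83 to 74 bases before the start, and no window of the other genes searched held one. A CArG box was present in 1.16% of the 35116 promoter windows of the table. DUSP1 held the full palindrome TGACGTCA, which contains TGACG on both strands and was present in 1.65% of all windows. The shorter TGACG was found in windows of EGR1, DUSP1, SPRY2 and SPRY4 and in 21.2% of all windows. The sequence CCGGAA, a longer form of the ETS site, was found in a window of SPRY2 and in 14.5% of all windows. Shorter forms of the ETS site were not searched. The hypoxia core ACGTG was found for EGR1 and DUSP1 and in 18.5% of all windows, and the AP-1 site TGACTCA for none of the 6 genes and in 4.203% of all windows. Such matches describe the letters of these windows and are no measure of binding.

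Beyond the 10 genes, 62 genes of 7 wider ERK pathway lists were listed in the files and 56 were tested. One of these, FOSB, reached the filter only through its PDBAG1 libraries and is left out of the counts. Of the other 55, 28 were higher at a limma adjusted p of 0.05 and 4 were lower. Of all genes tested, 21.7% were higher and 15.9% lower, and these shares also stand beside the counts of each list below. The median log2 fold change of the 55 was 0.19. These lists too were chosen with earlier results of these data known.

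Among the 6 other MAPK phosphatases, 4 were tested and 2 rose. DUSP10, which acts on JNK and p38, was at 14.1, 14.3 and 14.4 TPM with vehicle and at 26.7, 29.6 and 31.0 TPM with PDBAG1. With a log2 fold change of 0.98 (SE 0.07, adjusted p = 1.54e-07 by limma) it rose more than any of the 4 phosphatase members did on this scale. DUSP16, also directed at JNK, had a log2 fold change of 0.39 (adjusted p = 0.00324 by limma). The ERK-selective DUSP7 was at an average of 28.0 ± 2.22 TPM in the vehicle libraries and 27.0 ± 1.92 TPM in the PDBAG1 libraries (SD, n = 3 each). Its log2 fold change was -0.05 with a 95% confidence interval of -0.20 to 0.10. DUSP7 was chosen after its value was seen.

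The list of other Sprouty, Spred and receptor-level inhibitors held 10 genes, of which 9 were tested, 4 rose and 1 fell. ERRFI1, which encodes an inhibitor of the EGF receptor kinase, was at 237, 226 and 210 TPM with vehicle and at 499, 535 and 546 TPM with PDBAG1. It rose by a log2 fold change of 1.23 (SE 0.05, adjusted p = 5.58e-10 by limma). SPRED3 and SPRED2 rose by 0.51 and 0.34 on the log2 scale, so all 3 Spred genes were higher. SPRY1 was the gene that was lower, at an average of 14.9 ± 0.106 TPM in the vehicle libraries and 12.7 ± 0.6001 TPM in the PDBAG1 libraries (SD, n = 3 each). Its log2 fold change was -0.21 (adjusted p = 0.0261 by limma) and did not pass without vehicle replicate 2 (-0.21), vehicle replicate 3 (-0.22), PDBAG1 replicate 2 (-0.23) or PDBAG1 replicate 3 (-0.18). SPRY1 was picked with its value known. RASA1, a RAS inactivator, had a log2 fold change of 0.24 (adjusted p = 0.0157 by limma) and did not pass without vehicle replicate 2 (0.22), vehicle replicate 3 (0.20), PDBAG1 replicate 2 (0.22) or PDBAG1 replicate 3 (0.19), nor with no filter (adjusted p = 0.0572 by limma) or no variance trend (adjusted p = 0.0595 by limma).

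Of 15 immediate early and delayed early genes, 11 were tested apart from FOSB, 8 rose and 1 fell, and the median log2 fold change of 0.52 was the highest of the 7 lists. FOS, a partner in the AP-1 dimer, was at 2.16, 2.23 and 1.76 TPM with vehicle and at 9.62, 10.9 and 9.07 TPM with PDBAG1 (log2 fold change 1.83, SE 0.10, adjusted p = 1.45e-08 by limma). FOSB was near the detection limit with vehicle (0.690, 0.390 and 0.700 TPM) and at 3.61, 4.15 and 3.87 TPM with PDBAG1. JUNB, another AP-1 subunit, and MCL1, a survival factor of the BCL2 family, rose by 1.07 and 0.81 on the log2 scale. EGR2, EGR3 and EGR4, the relatives of EGR1, stayed at or below 0.280 TPM in every library and were not tested. The lower gene, IER5, was picked with its value known and went from a mean of 27.6 ± 0.489 to one of 24.4 ± 0.356 TPM (SD, n = 3 each). Its log2 fold change was -0.17 (adjusted p = 0.0286 by limma). The call for IER5 was lost without vehicle replicate 1 (-0.16), vehicle replicate 2 (-0.18), vehicle replicate 3 (-0.18) or PDBAG1 replicate 2 (-0.16).

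The 5 other MEK output genes went in both directions. Their median log2 fold change was -0.07, with 2 genes higher, 1 lower and 2 that did not pass. PHLDA1 rose from a mean of 222 ± 6.51 to one of 297 ± 3.07 TPM (SD, n = 3 each, log2 fold change 0.42, adjusted p = 1.86e-06 by limma), and ETV1, the third PEA3 factor, from a mean of 36.9 ± 1.73 to one of 47.9 ± 1.69 TPM (SD, n = 3 each, log2 fold change 0.37, adjusted p = 0.000173 by limma). CCND1, the gene for cyclin D1, was at 380, 361 and 361 TPM with vehicle and at 332, 327 and 352 TPM with PDBAG1. Its log2 fold change of -0.12 (SE 0.04, adjusted p = 0.0264 by limma) did not pass without vehicle replicate 1 (-0.10), vehicle replicate 3 (-0.14), PDBAG1 replicate 1 (-0.11) or PDBAG1 replicate 2 (-0.10), nor under quantile normalization (-0.09), with no filter (adjusted p = 0.0537 by limma) or with no variance trend (adjusted p = 0.113 by limma).

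The components of the cascade itself were listed as a group as well. Of the 18 genes, 7 (38.9%) were higher, 1 was lower and 10 did not pass, with a median log2 fold change of 0.08. Among all genes tested, 21.7% were higher and 15.9% lower. Without vehicle replicate 2 or without vehicle replicate 3, 4 of the 18 were higher. Of all 12582 genes tested, 2094 and 2013 were higher in these fits, in that order. MAP2K1, which encodes MEK1, was at 59.0, 53.4 and 57.2 TPM with vehicle and at 75.6, 74.1 and 72.9 TPM with PDBAG1 (log2 fold change 0.39, SE 0.05, adjusted p = 4.93e-05 by limma). SOS2 and SOS1, the exchange factors of RAS, had log2 fold changes of 0.36 and 0.32. MAPK3, the gene for ERK1, rose by 0.19 on the log2 scale (adjusted p = 0.00411 by limma).

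BRAF, which encodes a RAF kinase, was at 9.68 ± 0.716 TPM on average in vehicle libraries and at 10.2 ± 1.14 TPM in PDBAG1 libraries (SD, n = 3 each), and the groups overlapped. The log2 fold change of BRAF was 0.07 (95% confidence interval -0.12 to 0.26, adjusted p = 0.576 by limma). MAP2K2, the gene for MEK2, had a log2 fold change of 0.12 (adjusted p = 0.0201 by limma), which did not pass without vehicle replicate 2 (0.12), vehicle replicate 3 (0.13), PDBAG1 replicate 1 (0.10) or PDBAG1 replicate 2 (0.13), nor under median-of-ratios scaling (0.09, adjusted p = 0.192 by limma) or with no variance trend (adjusted p = 0.0956 by limma). GAB1, a docking protein, had a log2 fold change of 0.34 (adjusted p = 0.0208 by limma) and did not pass without vehicle replicate 2 (0.30), vehicle replicate 3 (0.33) or PDBAG1 replicate 3 (0.25), nor under quantile normalization (0.22, adjusted p = 0.0721 by limma) or with no filter (adjusted p = 0.0545 by limma).

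Of the 3 ELK genes, whose products bind DNA together with serum response factor and are activated by ERK, 2 rose. ELK3 was at an average of 67.8 ± 4.75 TPM in the vehicle libraries and 88.0 ± 5.67 TPM in the PDBAG1 libraries (SD, n = 3 each, log2 fold change 0.37, adjusted p = 0.000288 by limma), and ELK1 had a log2 fold change of 0.19 (adjusted p = 0.00947 by limma). Of the 5 RSK and MSK kinases, which ERK activates, 3 rose. Both counts stand beside 21.7% of all genes tested in the higher direction. RPS6KA2 and RPS6KA3 had log2 fold changes of 0.36 and 0.28. RPS6KA1 had 0.19 (adjusted p = 0.0269 by limma) and did not pass without vehicle replicate 1 (0.16), vehicle replicate 3 (0.21), PDBAG1 replicate 1 (0.19) or PDBAG1 replicate 3 (0.17), nor under median-of-ratios scaling (0.16) or quantile normalization (0.15).

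Over 13 alternative settings, the direction of all 10 feedback genes stayed higher, and the calls of DUSP1, DUSP4, DUSP5, DUSP6, SPRY4, SPRED1 and EGR1 were kept in each. The log2 fold change ranged from 1.06 to 1.26 for EGR1, from 0.62 to 0.70 for DUSP6 and from 0.07 to 0.13 for ETV4.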

How the data were processed

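Total RNA from vehicle-treated and PDBAG1-treated MDA-MB-231 cells was sequenced as mRNA libraries on the BGISEQ500 platform. Per the methods, the authors mapped clean reads to GRCh38.p13 with HISAT2 and described FPKM, whereas the deposited values are TPM rounded to 2 decimals. The submitters' processing notes name HISAT2 2.0.4, Bowtie2 2.2.5, RSEM 1.2.12 and GRCh38.p12. Which annotation release was used, and whether libraries were scaled to each other, is not given in the sources used here.

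Groups were taken from the sample titles. A gene entered the test when 3 or more libraries reached 1 TPM, and limma was run on log2(TPM + 1) values (version 3.58.1, lmFit, eBayes with a variance trend) in R 4.3.3, with Benjamini-Hochberg adjustment over all genes tested, and the steps were tested on simulated data. Calls used an adjusted p under 0.05, with or without the study's 1.5-fold limit. The members and lists were chosen with earlier results of these data known. Of the wider lists, the 4 called genes with the largest absolute change were named, with BRAF, MAP2K1, MAP2K2 and MAPK3. Some genes that the rule names are not reported here. Gene positions are from GENCODE v44, matched by Ensembl identifier. Alternatives were a pseudocount of 0.1, no filter, 1 TPM required in every library, median-of-ratios scaling, quantile normalization, the replicate number as a block, no variance trend, a 2-fold limit and leaving out each library.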

Additional observations from a re-analysis of the deposited data

How the results depend on the processing

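At a fold limit of 2, 1 of the 10 members (EGR1) passed in place of 2, and 80 of all genes tested in place of 420. With a pseudocount of 0.1, 630 genes passed the 1.5-fold limit. The members' count stayed between 7 and 9 over the 6 fits that each left out 1 library. The count of the wider lists, higher and lower genes together and FOSB included, lay between 25 and 31 against 33 with all libraries. Without FOSB, the fit on all libraries gave 28 higher and 4 lower genes. Under a replicate block, 8 members passed (ETV5 was lost, adjusted p = 0.0821 by limma). So did 28 genes of the wider lists against 33, FOSB included in both, and 3951 of all genes tested against 4736. Among the named genes of the wider lists, the block also ended the calls of SPRY1, IER5, CCND1, RPS6KA1 and MAP2K2 (adjusted p = 0.0794, 0.0952, 0.0534, 0.075 and 0.0535 by limma). Deviations from the group means correlated at -0.21, 0.01 and -0.08 between libraries of the same number, so the numbers were not treated as pairs. The log2 fold change of BRAF, which passed in no setting, was -0.0184 under quantile normalization and ranged from -0.0135 to 0.12 with each library left out. Median-of-ratios scaling and quantile normalization set the median of all genes tested at -0.0005 and -0.02 against 0.03, and that of the members at 0.32 and 0.33 against 0.35. FOSB was not tested where a TPM of at least 1 was required in every library. The cause of the calls lost when a library was left out was not tested. Without depth, the counting error of low genes such as EGR1 and FOSB is unknown.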

Other observations

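The genes whose pattern over the 6 libraries was nearest to that of EGR1, by Euclidean distance of the log2(TPM + 1) differences from the vehicle mean, were IL1A (distance 0.158), ENO2 (0.221) and CDKN1A (0.242). IL1A, an inflammatory cytokine of the interleukin-1 family, was at 15.5, 13.2 and 14.2 TPM with vehicle and at 33.0, 31.5 and 30.6 TPM with PDBAG1. ENO2, a glycolytic enolase, was at an average of 97.8 ± 3.99 TPM in the vehicle libraries and 214 ± 3.70 TPM in the PDBAG1 libraries (SD, n = 3 each). CDKN1A, the gene for the cell cycle inhibitor p21, was at 50.8, 50.8 and 50.7 TPM with vehicle and at 115, 114 and 111 TPM with PDBAG1. With 6 libraries in 2 groups, this distance mainly finds genes with a rise of the same size. None of the 10 feedback genes fell, so no nearest genes of a falling member were named.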
